A study of Mus musculus with 3 samples.

Results

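Hemoglobin carries oxygen in red cells as pairs of alpha-type and beta-type globin chains. The mouse makes mainly embryonic chains first, in red cells that arise in the yolk sac, and mainly adult chains in red cells made by the fetal liver. Both kinds of cell circulate together for a time. A transcript of an adult gene does not show which kind of cell held it. The genes lie in 2 clusters, the alpha-type genes on chromosome 11 and the beta-type genes on chromosome 7, and within each cluster the embryonic gene is silenced as the adult genes take over, a change known as globin switching. The 7 genes described here are 7 of the 32285 genes in the deposited matrices and were found by symbol. Of these, 3 are embryonic, namely Hba-x (the zeta chain, alpha-type), Hbb-y (the epsilon-y chain, beta-type) and Hbb-bh1 (the beta-h1 chain, beta-type), and 4 are adult, namely Hba-a1 and Hba-a2 (alpha chains) and Hbb-bs and Hbb-bt (the beta-s and beta-t chains).

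RNA was captured from 3 frozen mouse sections on Visium slides, whose barcoded spots are 55 µm across, so that a spot can hold several cells. The sections came from the embryonic axial skeleton, the earliest at day E11.5 of development, the next at E12.5 and the last at E13.5, with 1 section per stage, no treatment, and neither strain nor sex given in the labels. Stage, section, embryo and library therefore cannot be told apart. Per the labels' protocols, blood stains on the tissue surface were removed before freezing, so blood outside the vessels was in part wiped away. Captured RNA molecules were counted by their UMIs, short random tags that mark each molecule once. The E11.5 section held 44359910 UMIs in 1563 spots, the E12.5 section 25490744 in 1014 and the E13.5 section 28754555 in 1365. The 7 genes took 5.44%, 1.40% and 0.780% of these UMIs in the order of the stages. All 1014 spots at E12.5 held a UMI of the 7 genes, as did 1563 of 1563 at E11.5 and 1364 of 1365 at E13.5. In single spots with at least 1000 UMIs the globin share of all UMIs ran from 0.113% to 52.9% at E11.5 (median 1.95%), from 0.0499% to 14.1% at E12.5 (median 0.736%) and from 0.0228% to 12.7% at E13.5 (median 0.408%).

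Spots were divided by genes outside the globin family. Liver spots held at least 5 UMIs of Afp (alpha-fetoprotein, made by fetal liver cells) per 10000 UMIs, heart spots at least 10 of the heart muscle genes Myh6 and Myl7, and all remaining spots are called other spots. At E11.5 there were 69 liver, 103 heart and 1378 other spots, and at E13.5 there were 14, 85 and 1255. The E12.5 section had no liver or heart spot, and its 1014 spots were all other spots. Spots that met both criteria, 11 at E11.5 and 6 at E13.5, stood outside these classes. Of 11 further liver genes that did not choose the spots, 9 were higher in liver than in other spots by edgeR's quasi-likelihood test, and their summed level was 4845 CPM (counts per 1000000 UMIs) in liver, 180 CPM in heart and 394 CPM in other spots at E11.5, and 2447, 219 and 89.1 CPM in the same order at E13.5. Ttr (transthyretin) alone gave 312 of the 394 CPM in other spots at E11.5, and the remaining 10 genes summed to 4475, 162 and 82.1 CPM there. Liver spots at E13.5 were of mixed content. They also held 743 CPM of Ibsp and 141 CPM of Col10a1, genes of bone and of hypertrophic cartilage, against 22.0 CPM and 6.02 CPM in other spots, and the part of this in the results was not tested. Of 10 further heart genes, 4 were higher in heart than in other spots by the same test. Their summed level was 20035 CPM in heart and 229 CPM in other spots at E11.5 and 8361 and 2910 CPM at E13.5, and 10 of 10 stood at least 2-fold higher in heart spots at E11.5, against 6 of 10 at E13.5. Heart spots at E13.5 were of mixed content too. Markers of lung and gut epithelium summed to 281 CPM in them, against 159 CPM in other spots. Sftpc, a lung surfactant gene, stood at 151 and 87.9 CPM. Of the 10 further heart genes, 8 were higher in heart than in other spots at E13.5, such as Tnni3 at 798 and 9.98 CPM. The 2 lower ones were the myosin genes Myh7 and Myl3, at 33.9 and 11.1 CPM in heart spots against 236 and 40.3 CPM in other spots. Markers of skeletal muscle summed to 1946 CPM in other spots at E13.5 and to 751 CPM in heart spots. The part of skeletal muscle in the heart gene levels of other spots was not tested. Myl2, a further myosin gene, stood at 3961 CPM in heart spots at E11.5 and at 21.6 CPM at E13.5. The heart spots of the 2 sections thus differed in heart genes. The part of these differences and of the mixed content in the heart comparisons was not tested. Although labelled as bone of the axial skeleton, the E11.5 and E13.5 sections thus also held spots rich in liver or heart transcripts.

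The promoters of the members are shown because the genes are read below as an embryonic and an adult set, and the adult genes as pairs. The 150 bases before the transcription start were available from RefSeq (GRCm38.p6, the patch release of mm10) for 6 of the 7 genes, and Hbb-bh1 (chr7:103841638-103843162) is only named. Capitals mark 4 motifs on either strand: CACCC, the core of the element that the red cell factor KLF1 binds, GATAA, the core of GATA factor sites, CCAAT, and ATAAA, the end of a TATA box. Each sequence runs 5′ to 3′ on the strand of its gene.
Hbb-y, chr7:103853208-103853357: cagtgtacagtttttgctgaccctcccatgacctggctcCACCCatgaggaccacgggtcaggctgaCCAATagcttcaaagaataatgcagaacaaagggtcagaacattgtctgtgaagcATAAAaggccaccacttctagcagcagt
Hba-x, chr11:32276450-32276599: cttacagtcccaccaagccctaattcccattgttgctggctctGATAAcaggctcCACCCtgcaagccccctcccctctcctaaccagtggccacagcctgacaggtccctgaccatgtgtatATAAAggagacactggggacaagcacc
Hba-a1, chr11:32283522-32283671: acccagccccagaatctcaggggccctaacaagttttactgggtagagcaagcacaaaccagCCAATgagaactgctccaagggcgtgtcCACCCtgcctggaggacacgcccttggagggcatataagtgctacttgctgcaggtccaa
Hbb-bs, chr7:103827929-103828078: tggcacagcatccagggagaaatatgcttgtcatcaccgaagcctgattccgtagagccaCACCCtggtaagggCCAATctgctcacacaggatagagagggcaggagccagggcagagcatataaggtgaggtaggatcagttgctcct
Hbb-bt, chr7:103813924-103814073: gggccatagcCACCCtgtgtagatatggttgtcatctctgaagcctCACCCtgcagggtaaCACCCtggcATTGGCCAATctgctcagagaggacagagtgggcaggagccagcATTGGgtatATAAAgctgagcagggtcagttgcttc
CACCC was present in 6 of 6 members' windows, against 37.4% of 32851 RefSeq promoter windows of the same length. CCAAT was present in 5 of 6 (24.5% of all windows), ATAAA in 3 of 6 (24.1%) and GATAA in 1 of 6, Hba-x (13.3%). The windows of Hba-a1, Hba-a2 and Hbb-bs hold TATAA followed by G, which ATAAA misses, so its count is not one of TATA boxes. In Hbb-bt a CCAAT on each strand lie end to end without a shared base, which gives the run ATTGGCCAAT. The windows of Hba-a1 and Hba-a2, chr11:32296342-32296491, were the same in 147 of 147 bases once shifted by 3, and those of Hbb-bs and Hbb-bt in 106 of 149 bases (71.1%). A match of letters is a description and not a binding site. The transcripts of each adult pair are close copies, and how reads that match both were counted is not given in the sources used here. The split between Hba-a1 and Hba-a2 and between Hbb-bs and Hbb-bt is thus less certain than their sums. With no strain in the labels, which forms of the adult beta genes the embryos carried is not known here. Hbb-bs and Hbb-bt were taken as the gene symbols name them, and the part of this in their values was not tested.

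The first question was how the members' levels differed over the 3 stages. In other spots, the class present in every section, the 3 embryonic genes were far lower at E13.5 than at E11.5, the adult beta gene Hbb-bs was higher, and the remaining adult genes were lower by smaller ratios. In these mixed spots, fewer red cells and less RNA per red cell cannot be told apart. With 1 section per stage there is no test between stages, and the intervals given (95%, exact) cover counting error only.

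Hbb-y, the globin gene with the most UMIs at E11.5, stood at 22055 CPM in the E11.5 section, 5981 CPM in the E12.5 section and 259 CPM in the E13.5 section, a ratio of E13.5 over E11.5 of 0.0118 (0.0115 to 0.0120). Hba-x stood at 12387, 1768 and 81.2 CPM, a ratio of 0.00656 (0.00628 to 0.00684). Hbb-bh1 was at 3968, 342 and 3.63 CPM, a ratio of 0.000914 (0.000741 to 0.00111), and its last value rests on 97 UMIs in 1255 spots. The 3 embryonic genes thus had the same order of stages but ratios that their intervals separate. Hbb-bh1 was also the lowest of the 3 relative to E11.5 at E12.5, with a ratio of 0.0861 against 0.143 for Hba-x and 0.271 for Hbb-y.

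Of the adult genes, Hba-a1 stood at 5646, 2811 and 1462 CPM in the order of the stages, and Hba-a2 at 3052, 1845 and 1169 CPM. Both alpha genes were lower at each later stage, with E13.5 over E11.5 ratios of 0.259 for Hba-a1 and 0.383 for Hba-a2. Hbb-bs stood at 331, 613 and 3472 CPM, a ratio of 10.5 (10.3 to 10.7). Over all spots, liver and heart spots included, that ratio was 4.73 (4.67 to 4.78), and the ratio of E12.5 over E11.5 was 0.791, against 1.85 in other spots, so the direction between those stages turned with the spots taken. Hbb-bt stood at 1994, 624 and 877 CPM, lowest at E12.5. Summed, the embryonic genes had a ratio of 0.00896 and the adult genes one of 0.633. Between E11.5 and E13.5, 6 of 7 members had a ratio of at most 0.5, against 8.41% of 14998 genes with at least 50 UMIs, and 1 of 7 had a ratio of at least 2, against 15%. Between E11.5 and E12.5, 5 of 7 had a ratio of at most 0.5 (2.36% of genes) and 0 of at least 2 (6.16%), while between E12.5 and E13.5 the counts were 3 (8.21%) and 1 (10.1%).

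**Figure D1:**
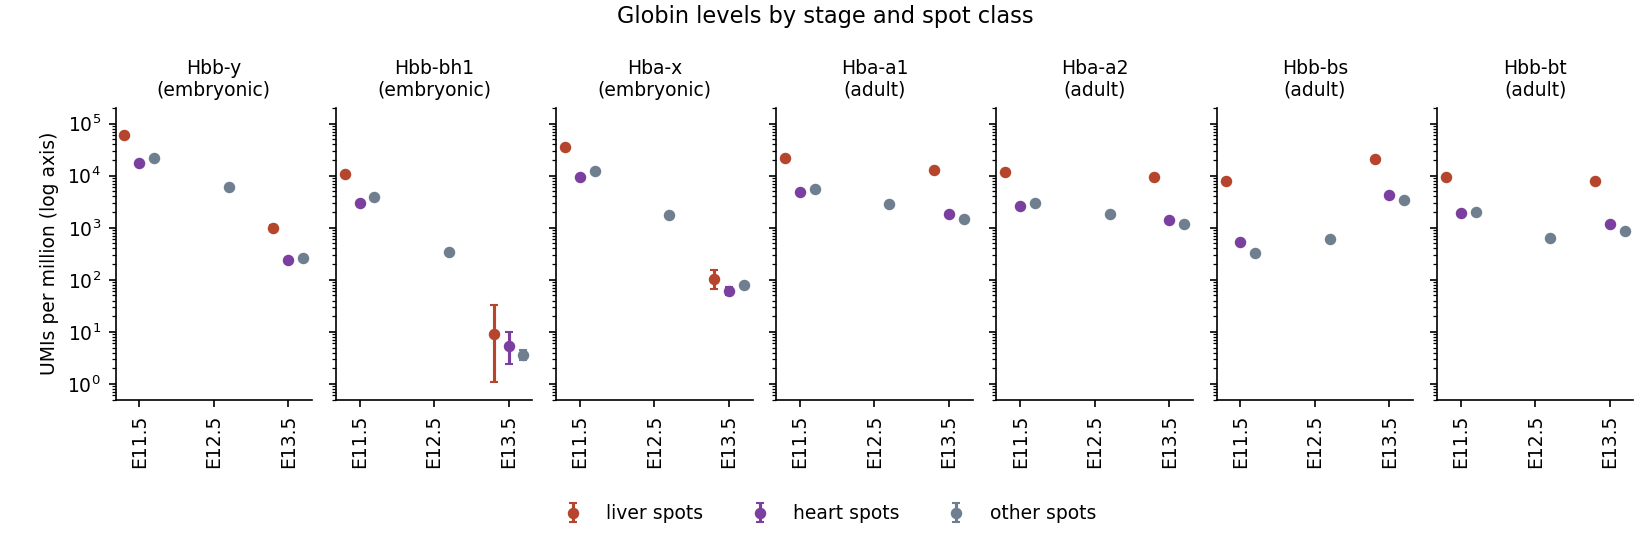
Level of each globin gene in CPM (UMIs per 1000000, log axis) in liver, heart and other spots of the 3 sections, with exact 95% Poisson intervals, most of them smaller than the points. The embryonic genes are lower at each later stage (Hbb-bh1 is at 3.63 CPM in other spots at E13.5), Hbb-bs is higher at E13.5, and liver spots lie above the others in both sections that have them, except that at E13.5 the intervals of Hbb-bh1 and Hba-x in liver spots overlap those in other spots.

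The embryonic share sets the UMIs of the 3 embryonic genes against all globin UMIs of the same spots. In other spots it was 77.7% (77.6 to 77.8) in the E11.5 section, 57.9% (57.7 to 58.0) in the E12.5 section and 4.70% (4.61 to 4.80) in the E13.5 section. Per spot, over spots with at least 20 globin UMIs, it ranged from 40.9% to 93.9% around a median of 78.6% in 1352 other spots at E11.5, from 22.3% to 86.2% around 60.3% in 962 spots at E12.5, and from 0% to 56.0% around 3.85% in 1077 spots at E13.5. The ranges overlapped, while the quartiles did not, at 76.8% and 80.5%, 56.4% and 63.8%, and 1.90% and 6.38% in the order of the stages. Of these spots, 3 of 1352 spots at E11.5 were below 60%, 10 of 962 at E12.5 were below 40%, and 17 of 1077 at E13.5 were above 20%. The SD over spots was 3.78 points at E11.5, where binomial sampling of the spots' own globin UMIs gives 2.82, 6.75 points against 4.73 at E12.5, and 4.64 points against 2.53 at E13.5.

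The alpha and beta chains did not keep step. Among alpha-type UMIs in other spots, Hba-x took 58.7%, then 27.5% and then 2.99% from stage to stage. Among beta-type UMIs, Hbb-y and Hbb-bh1 took 91.8%, 83.6% and 5.71%. At E12.5 the beta-type transcripts were thus still mostly embryonic while the alpha-type transcripts were mostly adult. Per spot at E12.5, the embryonic share of the beta chains had a median of 85.3% (quartiles 82.0% and 87.8%, 915 spots) and that of the alpha chains one of 28.0% (quartiles 24.0% and 32.2%, 829 spots). UMIs are not divided by transcript length, each counting 1 captured 3′ end.

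The sum of alpha-type transcripts relative to the sum of beta-type ones varied far less. Alpha-type genes took 42.7% of globin UMIs in other spots of the E11.5 section, 45.9% in the E12.5 section and 37.0% in the E13.5 section. Within each set the balance was uneven and differed between stages. Of adult globin UMIs the alpha genes took 78.9%, 79.0% and 37.7%, and of embryonic globin UMIs Hba-x took 32.2%, 21.9% and 23.6%. Among the embryonic beta chains, Hbb-bh1 took 15.2%, 5.40% and 1.38%, so that Hbb-y took nearly all of them at E13.5. Among the adult beta chains, Hbb-bs took 14.2%, 49.6% and 79.8%, while Hba-a1 took 64.9%, 60.4% and 55.6% of the adult alpha UMIs.

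**Figure D2:**
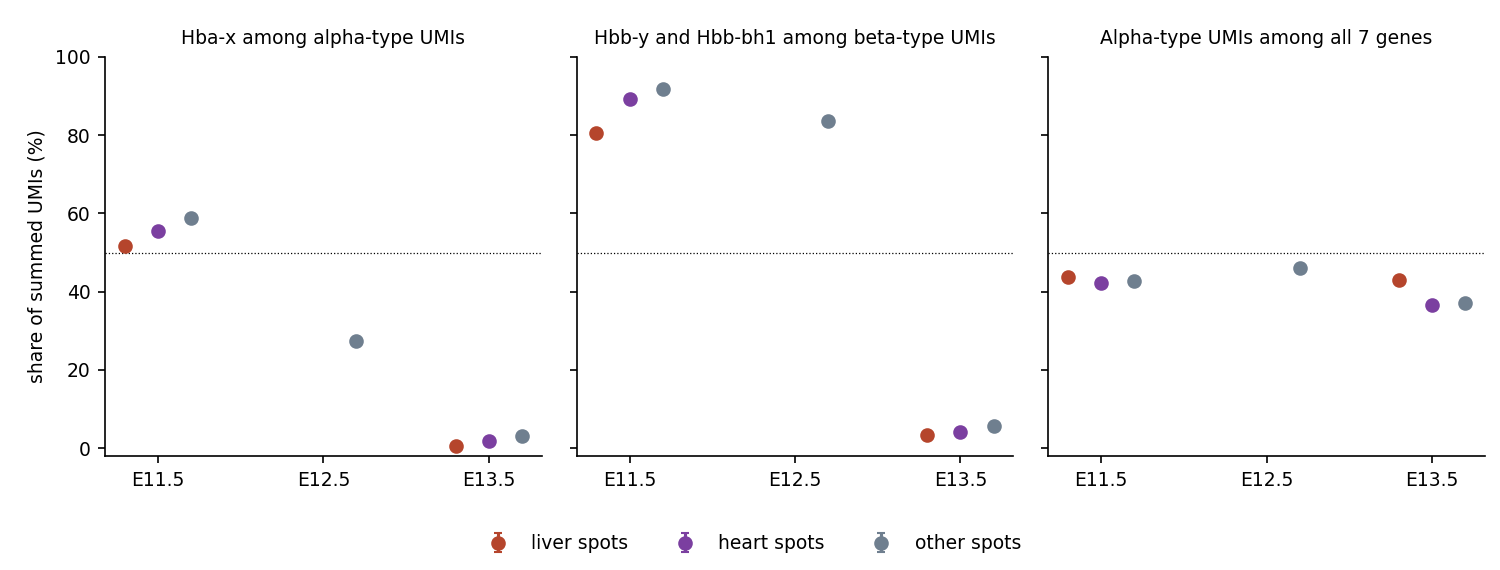
Share of summed UMIs (%) taken by Hba-x among alpha-type genes, by Hbb-y and Hbb-bh1 among beta-type genes, and by alpha-type genes among all 7, in liver, heart and other spots by stage; bars, smaller than most points, are exact 95% binomial intervals and the dotted line marks 50%. At E12.5 the embryonic share is 27.5% for the alpha and 83.6% for the beta chains, while the alpha share of all globin lies between 36.6% and 45.9% throughout.

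The second comparison set liver spots, where red cells with adult chains are made, against heart spots and other spots of the same section. All 7 genes stood higher in liver than in other spots at E11.5, and the adult genes by larger ratios than the embryonic ones in both sections. Hbb-y stood at 60707 CPM in liver, 17376 CPM in heart and 22055 CPM in other spots at E11.5, and at 1012, 236 and 259 CPM at E13.5. Hba-x stood at 35742, 9251 and 12387 CPM at E11.5 and at 105, 61.4 and 81.2 CPM at E13.5, the last liver value resting on 23 UMIs. Hbb-bh1 stood at 10942, 2989 and 3968 CPM at E11.5, and at E13.5 it had 2 UMIs in liver and 9 in heart spots. The liver over other ratio of the embryonic genes was 2.75 for Hbb-y, 2.76 for Hbb-bh1 and 2.89 for Hba-x at E11.5. At E13.5 it was 3.90 (3.40 to 4.46) for Hbb-y, 1.29 (0.816 to 1.94) for Hba-x and 2.51 (0.300 to 9.33) for Hbb-bh1, so that a difference of the last 2 genes was not detectable at this depth.

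The adult beta gene Hbb-bs stood at 7755 CPM in liver, 525 CPM in heart and 331 CPM in other spots at E11.5, a liver over other ratio of 23.4 (22.9 to 23.9). At E13.5 it stood at 20686, 4315 and 3472 CPM, a ratio of 5.96 (5.78 to 6.14). Hbb-bt stood at 9646, 1932 and 1994 CPM at E11.5 and at 8062, 1197 and 877 CPM at E13.5, with ratios of 4.84 and 9.20. At E11.5, Hbb-bs thus had a ratio several times that of its partner, and at E13.5 a smaller one. Hba-a1 stood at 21529, 4861 and 5646 CPM at E11.5 and at 12802, 1831 and 1462 CPM at E13.5, and Hba-a2 at 11735, 2579 and 3052 CPM and at 9470, 1426 and 1169 CPM. The 2 alpha genes had liver over other ratios of 3.81 and 3.84 at E11.5 and 8.76 and 8.10 at E13.5. Summed, the embryonic genes had ratios of 2.80 and 3.27 and the adult genes ratios of 4.60 and 7.31 in the E11.5 and the E13.5 section.

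Across both sections with all 3 classes, edgeR's quasi-likelihood test on the summed UMIs, with the section as a block, called 3 of the 7 members higher in liver than in other spots (Benjamini-Hochberg adjusted p under 0.05), where 0.389% of 13624 genes were called higher and 0.022% lower. The log2 fold changes were 2.94 ± 0.28 for Hbb-bt (SE, adjusted p = 0.0158), 2.74 ± 0.32 for Hba-a1 (0.0282) and 2.69 ± 0.29 for Hba-a2 (0.0234), with both sections in the same direction. Hbb-bs had the largest fold change, 3.86 ± 0.61, and did not pass (adjusted p = 0.0683), with within-section log2 ratios of 4.55 at E11.5 and 2.57 at E13.5. Among the embryonic genes, Hbb-y had 1.92 ± 0.27 (0.0564), Hbb-bh1 1.84 ± 0.35 (0.121) and Hba-x 1.29 ± 0.42 (0.348). Against heart spots the test called 4 of 7 higher in liver, where 0.279% of genes were called higher and 0.242% lower: Hbb-bt (2.60 ± 0.28, adjusted p = 0.0238), Hba-a1 (2.55 ± 0.31, 0.0291), Hba-a2 (2.52 ± 0.29, 0.0274) and Hbb-y (2.01 ± 0.27, 0.0437). Without the block edgeR called 0 of 7 members in either comparison (4 against other and 3 against heart spots at an unadjusted p under 0.05), and with liver spots chosen at 2 Afp UMIs per 10000 the counts were 0 against other spots (7 at an unadjusted p under 0.05) and 1, Hbb-bt, against heart spots. With heart spots chosen at 5 UMIs per 10000, or liver spots by the liver gene Alb in place of Afp, Hbb-y was no longer called against heart spots (adjusted p = 0.187 and 0.0664). DESeq2 called 6 of 7 against other and 7 of 7 against heart spots. With the block, the edgeR p-values measure how far the class differences disagree between sections of different stages. Each gene has only 2 residual degrees of freedom, so they also rest on a spread estimated with the help of other genes.

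Within sections, 7 of 7 members had a liver over other ratio of at least 2 at E11.5 (4.92% of genes with at least 50 UMIs) and 6 of 7 at E13.5 (9.29%), while 0 of 7 had one of at most 0.5 in either section (22.9% of genes at E11.5 and 10.4% at E13.5). The liver over heart ratio was at least 2 for 7 of 7 at E11.5 (3.79%) and for 5 of the 6 members with 50 UMIs at E13.5 (3.2%), and at most 0.5 for 0 (11.1% and 9.59%). None of the 7 reached a ratio of 2 or 0.5 between heart and other spots in either section (6.09% and 14.6% of genes at E11.5, 5.44% and 8.41% at E13.5), and the edgeR test called 0 of 7 (0.499% of genes higher, 0.11% lower), with log2 fold changes between -0.28 for Hba-x and 0.58 for Hbb-bs, adjusted p of at least 0.738, and 0 of 7 by DESeq2 and 0 of 7 at an unadjusted p under 0.05. With heart spots chosen at 40 UMIs per 10000, Hba-x was called lower in heart spots, with a log2 fold change of -1.62 (adjusted p = 0.0447).

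**Figure D3:**
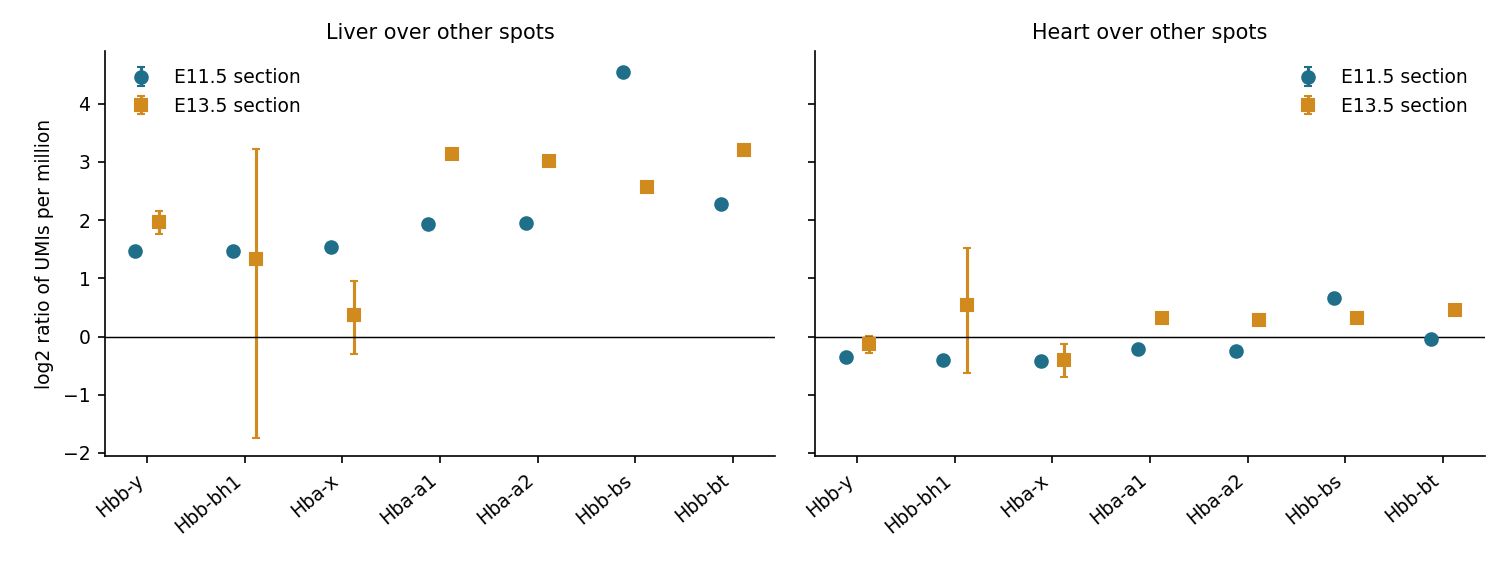
Log2 ratio of the CPM of each globin gene, liver over other spots (left) and heart over other spots (right), in the E11.5 and the E13.5 section, with exact 95% intervals for counting error. Liver ratios of the adult genes lie above those of the embryonic genes in both sections, although the interval of Hbb-bh1 at E13.5 spans them, Hbb-bs at E11.5 being the highest at 4.55. Heart ratios lie between -0.42 (Hba-x) and 0.66 (Hbb-bs), both at E11.5.

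The embryonic share was lower in liver spots in both sections. At E11.5 it was 67.9% in liver (67.8 to 68.1), 75.0% in heart (74.7 to 75.2) and 77.7% in other spots, and at E13.5 it was 2.16% (1.90 to 2.44), 3.34% (3.06 to 3.63) and 4.70%. Liver minus other spots thus came to -9.76 points at E11.5 and -2.54 points at E13.5, and heart minus other spots to -2.75 and -1.36 points. With the looser choice of heart spots, at 5 UMIs per 10000, the heart difference at E13.5 was 0.0372 points, of the opposite sign. The difference between liver and other spots was present in both chain types. Hba-x took 51.8% of alpha-type UMIs in liver, 55.4% in heart and 58.7% in other spots at E11.5, and 0.468%, 1.85% and 2.99% at E13.5. The embryonic beta chains took 80.5%, 89.2% and 91.8% of beta-type UMIs at E11.5, and 3.43%, 4.20% and 5.71% at E13.5.

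Single liver spots at E11.5 were spread widely. Over 69 spots the embryonic share ran from 12.7% to 82.4%, with quartiles of 48.9% and 74.4% around a median of 70.8%, and an SD of 18.2 points where counting alone gives 1.40. Heart spots ran from 55.2% to 83.1% around a median of 75.5% (103 spots, SD 4.69 points). Of the 69 liver spots, 66 were below the median of the other spots and 15 were below the lowest other spot. The share was under 50% in 18 of 69 liver spots and in 0 of 103 heart spots, and those 18 had a median of 81.2 Afp UMIs per 10000 and a globin share of 9.55%. At E13.5 the 13 liver spots with at least 20 globin UMIs ran from 0.559% to 5.21% around a median of 2.33%, heart spots from 0% to 21.2% around 3.0% (71 spots), and 11 of the 13 liver spots were below the median of the other spots, with none below their minimum of 0%.

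**Figure D4:**
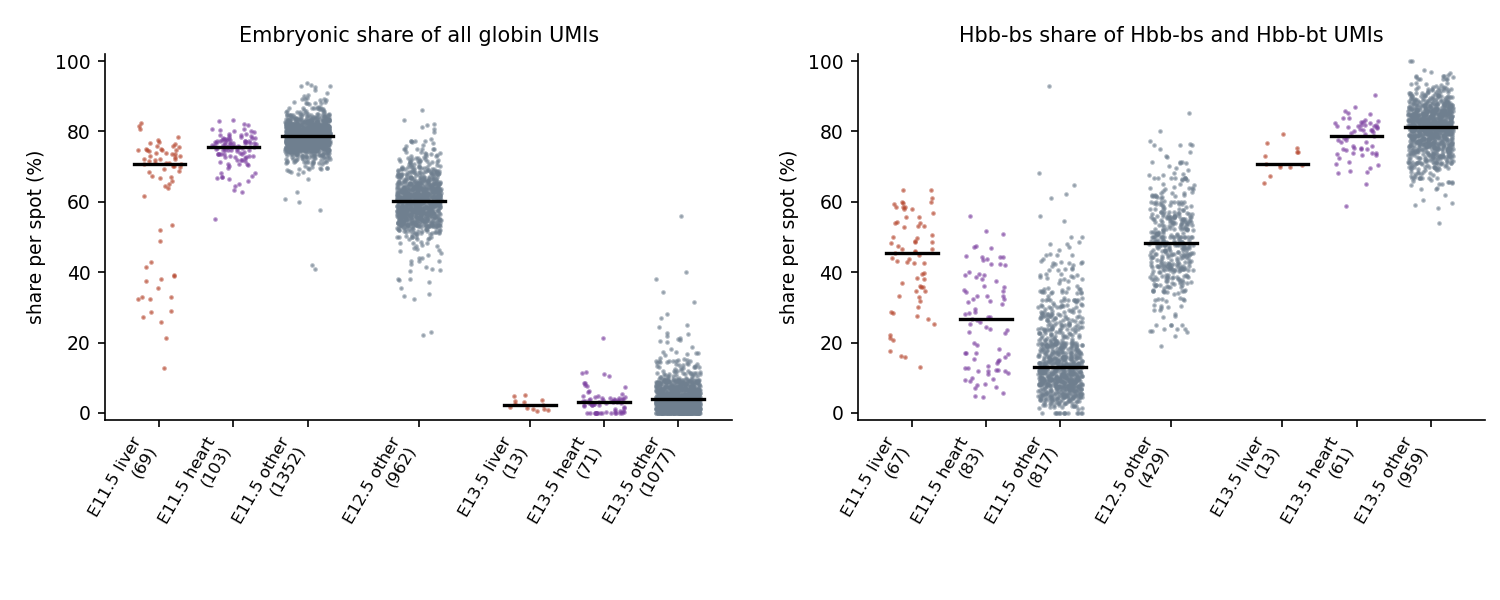
Share per spot (%), 1 point per spot with at least 20 UMIs of the genes counted, by stage and spot class with the number of spots in brackets; black lines are medians. Left, the embryonic share of all globin UMIs, with a tail of liver spots at E11.5 down to 12.7%; right, the Hbb-bs share of Hbb-bs and Hbb-bt UMIs, whose medians in liver, heart and other spots are 45.5%, 26.7% and 13.2% at E11.5 and 70.8%, 78.6% and 81.3% at E13.5.

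The share varied with the amount of Afp also among spots that are not liver spots. At E11.5 the embryonic share was 78.0% in 766 spots with no Afp UMI, 77.8% in 437 spots under 1 per 10000, 76.8% in 103 spots from 1 to 2, 76.3% in 72 spots from 2 to 5, 74.5% in 30 spots from 5 to 20, and 60.4% in 39 spots with 20 or more. Most of the difference thus lay in the 39 spots richest in Afp. At E13.5 it was 5.02%, 4.53%, 3.04% and 2.84% in the first 4 of these bins and 2.16% in the 14 liver spots. The level of the embryonic genes at E11.5 was 143999 CPM in the bin from 5 to 20 and 78838 CPM in the bin of 20 or more, while the adult genes stood at 49220 and 51793 CPM. The 2 groups of liver spots therefore differed little in adult and more in embryonic globin level.

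**Figure D5:**
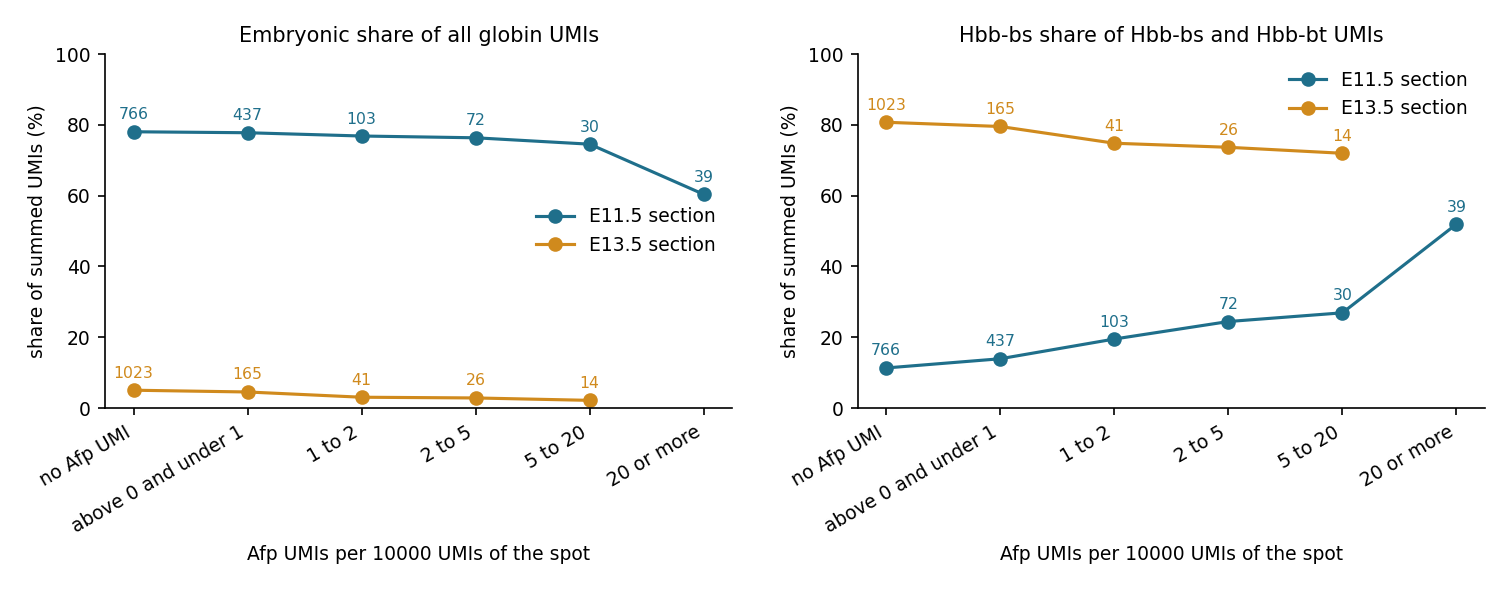
Embryonic share of globin UMIs (left) and Hbb-bs share of the adult beta UMIs (right), in % of summed UMIs, by the Afp level of the spot in the E11.5 and E13.5 sections; heart spots and spots meeting both criteria are left out, and numbers are spots. The embryonic share is lower in the bins with more Afp in both sections, while the Hbb-bs share runs up to 52.0% at E11.5 and down to 72.0% at E13.5.

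The 2 adult beta genes differed between classes in opposite directions at the 2 stages. At E11.5 Hbb-bs took 44.6% of adult beta UMIs in liver spots (44.1 to 45.0), 21.4% in heart spots (20.5 to 22.2) and 14.2% in other spots (14.0 to 14.5). At E13.5 it took 72.0% (70.8 to 73.1), 78.3% (77.4 to 79.1) and 79.8% (79.6 to 80.1). In other spots at E11.5 the Hbb-bs share also varied with globin content. It was 22.0%, 23.6%, 18.7% and 11.9% from the quartile of spots with the least globin to that with the most. At E13.5 these quartiles lay between 79.0% and 81.9%. The part of globin content in the class differences was not tested. Per spot at E11.5, 66 of 67 liver spots were above the median of the other spots, and at E13.5 all 13 liver spots were below it. The share exceeded 50% in 22 of 67 liver spots, 3 of 83 heart spots and 7 of 817 other spots at E11.5. Those 3 heart spots had a median of 2.51 Afp UMIs per 10000. Heart spots as a class held 111 CPM of Afp against 43.1 CPM in other spots at E11.5. At E13.5 they held 63.7 against 17.1 CPM. The part of this in the heart values was not tested. The alpha share of adult globin UMIs also differed in opposite directions, at 65.7% in liver, 75.2% in heart and 78.9% in other spots at E11.5 and 43.7%, 37.1% and 37.7% at E13.5. Hbb-bh1 took 15.3%, 14.7% and 15.2% of the embryonic beta UMIs in the 3 classes at E11.5, and Hba-a1 took 64.7%, 65.3% and 64.9% of the adult alpha UMIs.

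The amount of globin in a spot moved with the composition as well. Among other spots at E11.5, the 344 spots with the least globin (0.113% to 0.742% of UMIs) had an embryonic share of 79.7% and an alpha share of all globin of 32.1%, against 77.5% and 43.9% in the 345 spots with the most (4.61% to 50.5%). At E12.5 the 253 spots with the least globin had 62.9% and 38.5% and the 254 with the most 56.6% and 47.2%, and at E13.5 the 313 with the least had 3.88% and 32.4% and the 314 with the most 4.67% and 38.2%. The alpha share was thus higher in blood-rich spots at all 3 stages, and the embryonic share was lower in them at E11.5 and E12.5 and not at E13.5. At E11.5 the median depth of those with the least and the most globin was 20360 and 32062 UMIs, and the part of depth in these values was not tested.

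Over spots, the members' levels moved together at E11.5, with Spearman correlations of log2(UMIs per 10000 + 1) between 0.92 and 0.98 for all pairs without Hbb-bs (1561 spots) and between 0.62 and 0.72 for pairs with it. Hbb-bs had the fewest UMIs of the members in these spots, 34419 against 107204 for Hbb-bt, the next. The part of its low counts in the lower correlations was not tested. At E12.5 the correlations ran from 0.79 to 0.97 (1014 spots), lowest between Hbb-bh1 and Hbb-bs. At E13.5 the adult genes correlated between 0.81 and 0.88 with each other and Hbb-bh1, with few UMIs, between 0.15 and 0.19 with any other member (1360 spots). All points of a section share its library and its depth range. Among 7095 other genes, the 10 most like the sum of the embryonic genes by their lowest correlation over the 3 sections reached only 0.34 to 0.28, in this order Rpl39, mt-Co1, Selenop, Pf4, Rplp0, Gpx1, Cd248, mt-Co3, Rps14 and Stab1. The 10 most like the sum of the adult genes reached 0.41 to 0.32, namely Rpl39, Pf4, Mt1, Egfl7, Rps29, Stab1, Selenop, Apoe, mt-Co1 and Rps27. These are weak correlations in each list's weakest section. Gpx1, an antioxidant enzyme abundant in red cells, correlated with the embryonic sum at 0.74 at E11.5 and 0.29 at E13.5, and Mt1, a metallothionein, with the adult sum at 0.86 at E11.5 and 0.37 at E13.5.

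The other genes of red cell formation were described by lists. Of 14 regulators of globin genes and red cells, 5 were higher in liver than in other spots by edgeR's test and 0 lower, with a median log2 fold change of 1.08 over the list, against -0.08 over all genes. They were Gata1 (3.72 ± 0.46, edgeR adjusted p = 0.0349), Klf1 (3.07 ± 0.30, 0.0158), Nfe2 (2.90 ± 0.39, 0.0447), Tal1 (2.67 ± 0.27, 0.0166) and Zfpm1 (2.27 ± 0.29, 0.0398). All are factors of red cell development. In liver spots at E13.5 these folds rest on few UMIs, with 1 for Gata1, 4 for Nfe2, 6 for Tal1 and 5 for Zfpm1. Bcl11a, a repressor of embryonic and fetal globin genes, had 0.26 ± 0.42 and Zbtb7a, another such repressor, 0.69 ± 0.40, neither past the test. Klf1 stood at 95.2 CPM in liver, 16.2 CPM in heart and 15.1 CPM in other spots at E11.5 and at 27.3 CPM (6 UMIs), 3.51 and 3.14 CPM at E13.5.

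Of 12 genes of heme synthesis and iron supply, 1 was higher in liver than in other spots, Slc25a37, the mitochondrial iron importer mitoferrin (2.48 ± 0.21, edgeR adjusted p = 0.0102), and 0 were lower, with a list median of 1.59. Alas2, the first enzyme of heme synthesis in red cells, had 2.60 ± 0.41 and did not pass (edgeR adjusted p = 0.0683). Of 14 red cell membrane and enzyme genes tested, 2 were higher and 0 lower, with a list median of 3.24. These were Ermap, a red cell surface protein (3.35 ± 0.33, 0.0158) and Car2, a carbonic anhydrase (2.76 ± 0.27, 0.0158). In liver spots at E13.5 Ermap had 7 UMIs and Car2 had 40. Of 3 further globin genes tested 0 were called by edgeR (1 at an unadjusted p under 0.05 and 1 by DESeq2), and Hbq1b, the theta chain, had 28.9 CPM in liver, 5.95 CPM in heart and 6.65 CPM in other spots at E11.5. Between heart and other spots edgeR called 0 of the 43 genes of these 4 lists (1 at an unadjusted p under 0.05 and 1 by DESeq2). Of all genes it called 0.499% higher and 0.11% lower in that comparison. Platelet and megakaryocyte markers (5 of 5 detected at E11.5) summed to 450 CPM in liver, 251 CPM in heart and 138 CPM in other spots at E11.5 and to 118, 77.2 and 116 CPM at E13.5, where 2 of the 5 had no UMI in liver spots, and macrophage markers to 101, 62.2 and 98.7 CPM and to 351, 262 and 355 CPM. Between liver and other spots edgeR called 0 of these 12 genes (3 at an unadjusted p under 0.05 and 0 by DESeq2), and their part in the globin differences was not tested. In the same comparison edgeR called 0 of 4 genes of other blood-forming cells, 0 of 6 of endothelium, 0 of 5 of skeletal muscle and 0 of 4 of lung and gut epithelium (1, 0, 0 and 1 at an unadjusted p under 0.05, and 0, 0, 0 and 1 by DESeq2). Of all 13624 genes, edgeR called 0.389% higher and 0.022% lower there, and 1506 had an unadjusted p under 0.05. A count of 0 in such short lists therefore does not show that these cell types were alike in liver and other spots.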

How the data were processed

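The deposited values are raw UMI counts per gene and spot of each section. Per the file headers, the authors' software was Space Ranger 1.2.0. The submitters' processing notes list STAR and mm10. The annotation release, the STAR version and the spot filter were not given in the sources used here. Stages were read from the titles. Spots under 1000 UMIs were left out (2 at E11.5, 0 at E12.5, 5 at E13.5). The sections shared 434 to 704 spot barcodes pairwise, which in Visium mark array positions and not cells. Spots are small regions, so no doublet caller was run. Globin genes were not used to choose spot classes. The members, lists and cut-offs were chosen with earlier results of these data known.

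UMIs were summed per section and class (at least 10 spots) into 7 sums, on which edgeR 4.0.16 (filterByExpr, TMM, quasi-likelihood test, section as block) tested 13624 genes with Benjamini-Hochberg adjustment in R 4.3.3; DESeq2 1.42.0 was an alternative. Since the E12.5 section has 1 class, the contrasts rest on 2 sections. The section block is the tissue that the classes share. The edgeR steps were run on simulated counts in which each changed gene had the same liver fold in every section. That run does not show how the test behaves where sections differ, as they do for Hbb-bs. Levels are UMIs per 1000000 with exact Poisson intervals, shares have exact Clopper-Pearson intervals and ratios exact conditional binomial ones, all at 95% and covering counting error only. An exact sign-flip test over 3 sections cannot go below p = 0.25 and was not used. Named genes are all members, and of each list those past the test with the 4 largest folds. Zfpm1, Bcl11a, Zbtb7a, Alas2, Hbq1b, Ttr, Myh7, Myl2, Myl3, Sftpc, Ibsp and Col10a1 were named after their values were seen. Promoter windows come from RefSeq (GRCm38.p6). Python 3.11.15, numpy 2.4.6, scipy 1.17.1 and pandas 2.3.3 were used. Spot positions and images were not used here.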

Additional observations from a re-analysis of the deposited data

Results flagged for a closer look

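Several values differed from zero or from a ratio of 1 in one direction in the E11.5 section and in the other direction in the E13.5 section, each beyond counting error. The difference between the sections was not tested, since each stage has 1 section. Heart over other spots, the ratio of Hba-a1 was 0.861 at E11.5 and 1.25 at E13.5, that of Hba-a2 was 0.845 and 1.22, and that of Hbb-bt was 0.969 and 1.37. The Hbb-bs share of adult beta UMIs, liver minus other spots, was 30.3 points at E11.5 and -7.88 points at E13.5. Liver minus heart spots it was 23.2 and -6.32 points, and heart minus other spots 7.12 and -1.56 points. The alpha share of adult globin UMIs, liver minus other spots, was -13.2 points at E11.5 and 5.96 points at E13.5, and liver minus heart spots -9.52 and 6.51 points. The comparisons of a section share its liver, heart or other spots and are not independent of each other.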

How the results depend on the processing

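The members' liver fold changes stayed above 0 in 91 of 91 alternative values against other spots (log2 0.37 to 4.55) and 91 of 91 against heart spots (0.77 to 3.89), the within-section ratios included. These values come from the same genes and sections, often with nearly the same spots, so the count is a weak check. They include the E13.5 liver over other ratios of Hba-x (0.816 to 1.94) and Hbb-bh1 (0.300 to 9.33), where a difference was not detectable. Counts of genes called were 56 (liver minus other), 71 (liver minus heart) and 83 (heart minus other), and moved to 13, 46 and 92 with liver spots at 2 Afp UMIs per 10000, to 103, 130 and 532 with heart spots at 40 UMIs per 10000, to 235, 318 and 435 with DESeq2 and to 753, 755 and 1034 without a filter on low counts. Without the replicate block they were 0, 0 and 35 (1496, 1248 and 1476 genes at an unadjusted p under 0.05). The heart minus other count was 28 with liver spots at 20 Afp UMIs, 55 with liver spots by Alb and 35 with heart spots at 5 UMIs. Without the E12.5 section counts were 60, 73 and 73. Without the E11.5 or the E13.5 section no degrees of freedom remained, so only within-section values were given. With liver spots at 20 Afp UMIs the E13.5 section had no liver spot, so the liver comparisons have no value there.

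The embryonic share, liver minus other spots, at E11.5 was -6.95 points with alpha and -11.3 with beta chains alone, -7.61 and -17.0 with liver spots at 2 and at 20 Afp UMIs, -15.4 by Alb and -17.0 as a mean over spots. Heart minus other spots at E11.5 it was -3.32 with alpha chains alone, -2.10 and -3.33 at 2 and at 20 Afp UMIs, -3.35 by Alb, -3.01 with heart spots at 40 UMIs and -4.06 as a mean over spots. At E13.5 heart minus other was -2.65 with heart spots at 40 UMIs and 0.0372, reversed in sign, at 5 UMIs. The cause was not tested. Heart minus other fold changes that changed sign, none past the test, were Hbb-y (0.13 with heart spots at 5 UMIs, 0.18 without the replicate block), Hba-x (0.11 and 0.23 in the same 2 fits), Hbb-bh1 (-0.0186, -0.0123 and -0.000609 with liver spots at 2 and at 20 Afp UMIs and by Alb, -1.01 with heart spots at 40 UMIs), Hba-a1 (-0.51), Hba-a2 (-0.51) and Hbb-bt (-0.25), the last 3 with heart spots at 40 UMIs.

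The E13.5 over E11.5 ratio of the embryonic sum was 0.00844 over all spots and 0.00858 scaled without globin, that of the adult sum 0.568 and 0.606, and that of all 7 genes 0.143, 0.142 and, in spots with at least 5000 UMIs, 0.149. Medians of the share per spot moved by less than 1 SD over spots in 14 of 14 cases when only the minimum of globin UMIs per spot was changed. The SD over single spots is a wide margin for a median, so this count is a weak check. Hbb-bh1 at E13.5 is limited by depth, with 108 UMIs in the section.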

Other observations

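Spots that met both the liver and the heart criterion belong to neither class. The 11 such spots at E11.5 had an embryonic share of 61.8% (61.0 to 62.5) and an Hbb-bs share of adult beta UMIs of 49.0% (47.2 to 50.9), and globin took 4.43% of their UMIs. The 6 such spots at E13.5 had an embryonic share of 3.31% (2.41 to 4.44) from 1298 globin UMIs, and an Hbb-bs share of 77.5% (74.4 to 80.3).

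Among the other spots of E13.5, the 17 with an embryonic share above 20% had no Afp UMI in the median spot, a median depth of 20666 UMIs and a globin share of 0.794%, against 0.732% over all other spots of that section. The 7 other spots of E11.5 in which Hbb-bs took more than 50% of adult beta UMIs had a median of 1.01 Afp UMIs per 10000.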
